A study of Mus musculus with 8 samples.

Results

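The genes followed here were 10 components of the circadian clock, Clock, Arntl (also called Bmal1), Npas2, Per2, Per3, Cry1, Nr1d1, Nr1d2, Dbp and Tef, in late fetal and newborn mouse lung. They were chosen by name, and all 10 were found among the 25965 genes of the deposited expression table. The study disrupted Wfdc2, which encodes a secreted whey acidic protein domain protein of the airway epithelium, and profiled lung RNA before and after birth. The 8 libraries formed 4 groups of 2, namely Wfdc2+/+ and Wfdc2GFP/GFP lungs at E18.5, late in gestation, and the same genotypes at P1.5, just after birth. In the Wfdc2GFP/GFP animals both alleles carried an IRES-EGFP cassette in place of part of exon 1 and all of exon 2, so the gene was disrupted in every cell and at every age. The allele was made in TT2 embryonic stem cells, its drug resistance gene was removed by a cross to CAG-Cre mice, and the controls were described as littermates. The hour of collection, the light cycle and the strain of the animals used for RNA were not given in the sources used here, so that genotype, stage and time of day cannot be told apart for genes that cycle over the day. RNA came from whole lung, in which fewer cells of a type and less RNA per cell cannot be told apart.

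The clock is a loop of transcription and feedback that runs in most cells. CLOCK or its relative NPAS2 pairs with ARNTL and switches on genes through E-boxes, among them the Per and Cry genes, whose proteins feed back on the pair. The same pair switches on Nr1d1 and Nr1d2, which encode the nuclear receptors REV-ERB alpha and beta that repress Arntl and Npas2 through ROR response elements, and Dbp, which with Tef acts through D-boxes. In adult tissues, the lung included, Arntl and Npas2 RNA therefore peaks at about the opposite time of day to Dbp and Nr1d1 RNA. The lung clock is well known in club cells, where it tunes inflammatory responses.

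The elements named above were looked for in RefSeq promoters (mouse build GRCm38.p6, the mm10 sequence), each running from 250 bases before to 50 bases after an annotated start. Of the 10 genes 9 were matched, with 13 promoters, and Per2 was not. The E-box CACGTG, which reads the same on both strands, was present in promoters of Tef and Cry1 and in 7.15% of all 32851 promoters. The related CACGTT, searched on both strands, was present in Cry1 and Nr1d1 and in 4.68% of promoters. The D-box TTATGTAA, searched on both strands, was present only in Per3 among the matched genes and in 0.938% of promoters. The core of the ROR response element, TAGGTCA or TGGGTCA on either strand, was present only in Arntl among the matched genes and in 6.45% of promoters. The sequences below, from 5′ to 3′ on the strand of the gene, show in capitals the E-box of Tef and Cry1, both D-boxes of Per3 and the ROR element core of Arntl. The CACGTT matches, at -79 from the start in Cry1 and -28 in Nr1d1, are not marked. They are the 250 bases before the start of Tef (chr15:81802423-81802672, plus strand), Cry1 (chr10:85185055-85185304, minus strand) and Per3 (chr4:151044666-151044915, minus strand), and 30 bases downstream of a start of Arntl (chr7:113207530-113207559, plus strand), in that order. A match describes the letters and not binding.
Tef: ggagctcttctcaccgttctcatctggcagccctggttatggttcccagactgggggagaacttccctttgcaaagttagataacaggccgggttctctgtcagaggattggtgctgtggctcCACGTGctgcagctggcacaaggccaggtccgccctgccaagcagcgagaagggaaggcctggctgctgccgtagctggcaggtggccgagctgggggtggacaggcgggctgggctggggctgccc
Cry1: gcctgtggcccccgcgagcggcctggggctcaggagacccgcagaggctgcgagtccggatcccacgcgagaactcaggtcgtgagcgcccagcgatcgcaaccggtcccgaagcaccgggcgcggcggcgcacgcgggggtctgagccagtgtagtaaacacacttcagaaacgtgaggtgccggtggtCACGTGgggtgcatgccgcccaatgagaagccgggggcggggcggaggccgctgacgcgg
Per3: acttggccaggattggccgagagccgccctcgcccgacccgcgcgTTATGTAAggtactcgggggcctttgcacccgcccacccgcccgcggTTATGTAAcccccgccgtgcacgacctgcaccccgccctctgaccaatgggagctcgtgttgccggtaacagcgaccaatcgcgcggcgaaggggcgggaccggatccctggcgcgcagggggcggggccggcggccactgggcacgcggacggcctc
Arntl: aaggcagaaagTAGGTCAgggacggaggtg

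The totals recovered from the deposited values, used here as the reads of each library, ran from 19457647 to 37209332. These totals differ from the mapped reads that the paper lists, and exceed them in both E18.5 Wfdc2GFP/GFP libraries. The reason was not tested. Wfdc2 had 8038 to 32845 reads in the Wfdc2+/+ libraries and 0 to 12 in the Wfdc2GFP/GFP libraries. In every group replicate 1 carried Xist (4121 to 90980 reads) and replicate 2 carried Ddx3y (972 to 2175 reads), against 1 to 13 and 0 to 3 reads in the other libraries, so that each group held 1 library of each kind and the replicate number and the sex of the tissue cannot be told apart. The summed level of 6 lung epithelial markers (Sftpc and others, none at 0) was 34766 to 76403 RPM (reads per 1000000 reads) at P1.5 and 18324 to 23449 RPM at E18.5, except for 8175 RPM in E18.5 Wfdc2GFP/GFP replicate 1. Nkx2-1 alone of the 6 went the other way in that library, at 339 RPM against 225 and 267 RPM in the E18.5 controls. That library was also lowest for the summed erythroid markers (339 RPM against 1053 to 2768 RPM in the other libraries) and leukocyte markers (138 RPM against 466 to 2258 RPM). Heart and striated muscle markers (6 genes, none at 0) summed to 116 to 492 RPM at E18.5 and 246 to 744 RPM at P1.5. Thymus markers summed to at most 1.54 RPM in each library, and hepatocyte markers to at most 7.64 RPM except for 82.3 RPM in P1.5 Wfdc2+/+ replicate 2. Because the groups held 2 libraries each, results are given library by library, in the order replicate 1 and replicate 2.

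All 10 clock genes were detected in every library, from 61 reads (Nr1d1) to 8950 reads (Tef). Each passed the low-value filter, set at 0.05 RPKM (RPM divided by the gene span in kilobases) for the mean of the 8 libraries, as did 15627 genes in all. Levels of different genes were compared per kilobase of annotated exon (GENCODE M21). On that scale Tef was highest, with a median over the 8 libraries of 17.3 RPM per exon kilobase, followed by Cry1 (8.12), Per2 (6.29), Nr1d2 (4.72), Per3 (3.19), Npas2 (2.96), Arntl (2.75), Dbp (2.71), Nr1d1 (2.52) and Clock (2.18). The range of Tef (12.7 to 30.6) did not overlap that of Cry1 (5.27 to 11.2), whereas every other pair of neighbours in the order overlapped. Reads were counted over the whole span, introns included, and the span ran from 5.07 kb (Dbp) to 170 kb (Npas2). The part of intron reads in this order was not tested. The highest library exceeded the lowest by 20.9-fold for Nr1d1, 7.77-fold for Dbp and 7.30-fold for Npas2, but by 2.41-fold for Tef and 2.13-fold for Cry1. Over the 10 genes the median of this fold was 4.69, beside 3.47 over all genes tested.

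**Figure D1:**
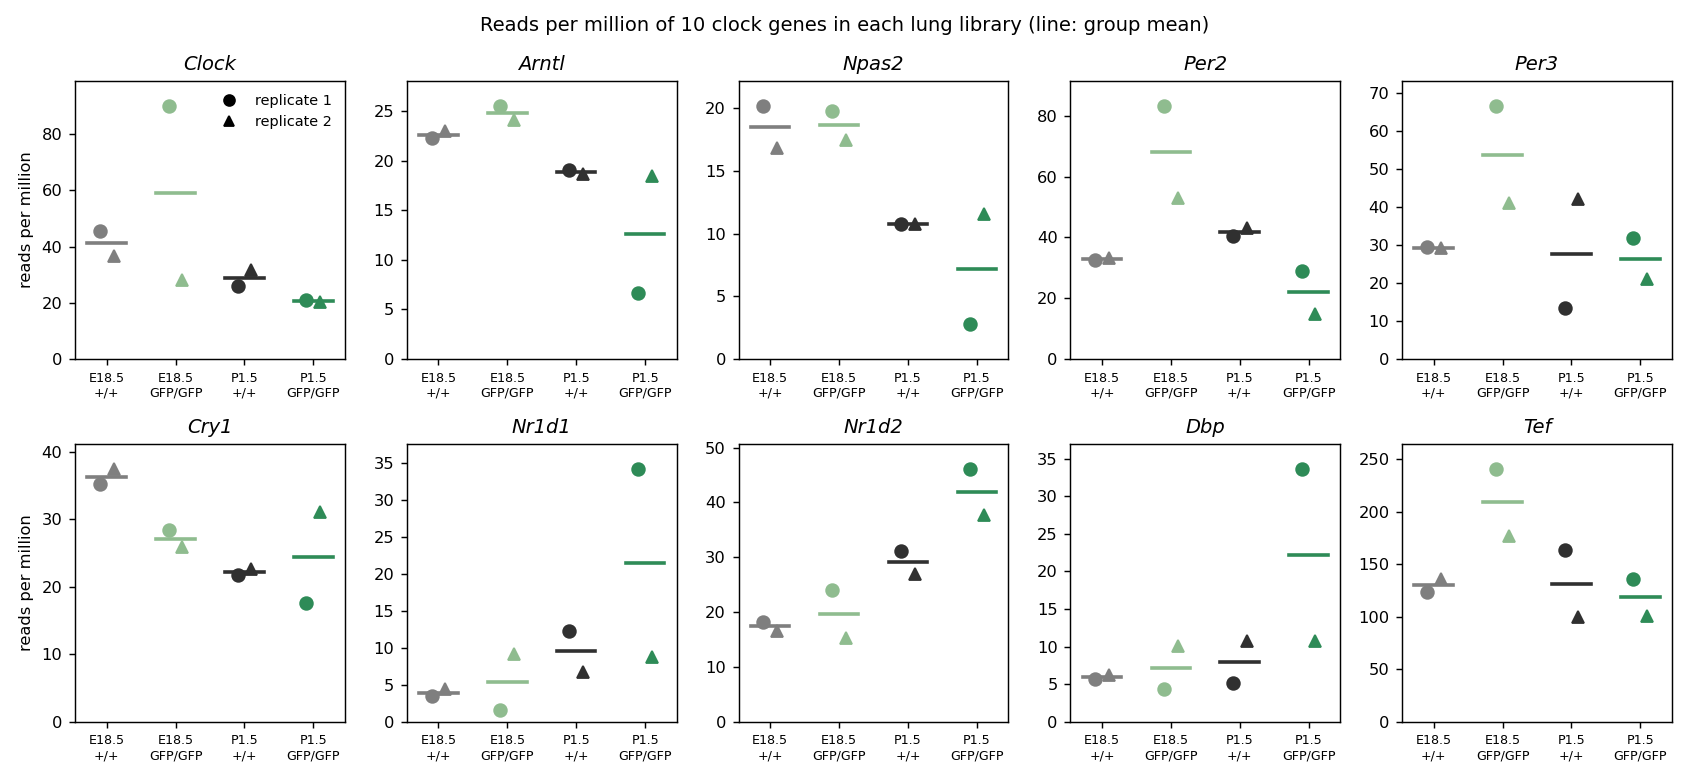
Level of each clock gene, in RPM on an axis from 0, in the 8 lung libraries by stage and genotype. Circles are replicate 1, triangles replicate 2 and lines group means of n = 2. P1.5 Wfdc2GFP/GFP replicate 1 holds the highest Dbp (33.6) and Nr1d1 (34.2) and the lowest Arntl (6.69) and Npas2 (2.76).

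Among the activators, Arntl, the obligate partner of the loop (chr7:113207465-113314122, plus strand), was nearly level at E18.5 and lower after birth. It stood at 22.3 and 23.0 RPM in E18.5 Wfdc2+/+, 25.5 and 24.1 RPM in E18.5 Wfdc2GFP/GFP, 19.1 and 18.7 RPM in P1.5 Wfdc2+/+, and 6.69 and 18.4 RPM in P1.5 Wfdc2GFP/GFP. All 4 P1.5 libraries were thus below all 4 E18.5 libraries, although after centring each library on its median the Wfdc2+/+ difference turned from -0.26 to 0.0031 on the log2 scale. The largest gap lay within a group, since P1.5 Wfdc2GFP/GFP replicate 1 was 2.75-fold below replicate 2. Npas2, which can stand in for Clock (chr1:39193731-39363234, plus strand), followed the same order. Npas2 was at 20.2 and 16.8 RPM in E18.5 Wfdc2+/+, 19.8 and 17.5 RPM in E18.5 Wfdc2GFP/GFP, 10.7 and 10.8 RPM in P1.5 Wfdc2+/+, and 2.76 and 11.6 RPM in P1.5 Wfdc2GFP/GFP. Its P1.5 libraries also all lay below its E18.5 libraries, and the mutant replicates at P1.5 differed 4.18-fold. After centring each library on its median the Npas2 libraries of the 2 stages overlapped. Clock (chr5:76212177-76304548, minus strand) did not share this pattern. It was at 45.5 and 36.7 RPM in E18.5 Wfdc2+/+, 89.8 and 28.2 RPM in E18.5 Wfdc2GFP/GFP, 25.8 and 31.6 RPM in P1.5 Wfdc2+/+, and 21.0 and 20.3 RPM in P1.5 Wfdc2GFP/GFP. Its outlying library was E18.5 Wfdc2GFP/GFP replicate 1, the library with low sums of epithelial, erythroid and leukocyte markers, whose part in the Clock value was not tested.

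Of the inhibitors, Per2 (chr1:91415984-91459330, minus strand) separated by genotype at both stages in the uncentred values, in opposite directions, as did Arntl by smaller margins. Per2 was at 32.5 and 33.3 RPM in E18.5 Wfdc2+/+ and 83.2 and 53.0 RPM in E18.5 Wfdc2GFP/GFP, then at 40.3 and 43.1 RPM in P1.5 Wfdc2+/+ and 29.0 and 14.8 RPM in P1.5 Wfdc2GFP/GFP. Without centring of the libraries the Per2 groups did not overlap at either stage. After centring each library on its median they still lay apart at E18.5 but overlapped at P1.5. The mutant was 2.02-fold above the control at E18.5 (log2 difference 1.01, SE 0.42) and 2.01-fold below it at P1.5 (-1.01, SE 0.42), and neither passed limma's test after Benjamini-Hochberg adjustment over all genes (adjusted p = 1 and 0.445). The interaction, the change of the genotype difference between the stages, was -2.02 on the log2 scale (SE 0.60, adjusted p = 0.321 by limma). Per3 (chr4:151003652-151044665, minus strand) gave 29.5 and 29.1 RPM in E18.5 Wfdc2+/+, 66.4 and 40.9 RPM in E18.5 Wfdc2GFP/GFP, 13.4 and 42.0 RPM in P1.5 Wfdc2+/+, and 31.7 and 21.0 RPM in P1.5 Wfdc2GFP/GFP. At E18.5 it was higher in both mutant libraries, like Per2, but at P1.5 the 2 controls spanned both mutants. Cry1, the cryptochrome partner of the PER proteins (chr10:85131702-85185054, minus strand), moved least over the libraries. Its values were 35.2 and 37.4 RPM in E18.5 Wfdc2+/+, 28.4 and 25.8 RPM in E18.5 Wfdc2GFP/GFP, 21.7 and 22.6 RPM in P1.5 Wfdc2+/+, and 17.6 and 31.1 RPM in P1.5 Wfdc2GFP/GFP. Both E18.5 mutants lay below both controls, and at P1.5 the mutants spanned the controls.

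The repressor Nr1d1 (REV-ERB alpha; chr11:98767932-98775333, minus strand) had the widest range of the 10 genes. It was at 3.49 and 4.40 RPM in E18.5 Wfdc2+/+, 1.64 and 9.13 RPM in E18.5 Wfdc2GFP/GFP, 12.3 and 6.78 RPM in P1.5 Wfdc2+/+, and 34.2 and 8.72 RPM in P1.5 Wfdc2GFP/GFP. Both P1.5 controls exceeded both E18.5 controls, while the mutant replicates stood 5.57-fold apart at E18.5 and 3.93-fold apart at P1.5. Nr1d2 (REV-ERB beta; chr14:18204054-18239127, minus strand) was steadier and was the gene of the 10 whose P1.5 libraries all lay above its E18.5 libraries. It was at 18.3 and 16.5 RPM in E18.5 Wfdc2+/+, 24.1 and 15.3 RPM in E18.5 Wfdc2GFP/GFP, 31.1 and 27.0 RPM in P1.5 Wfdc2+/+, and 46.1 and 37.6 RPM in P1.5 Wfdc2GFP/GFP. Across all genes tested, without centring, 7.28% were higher in all 4 P1.5 than in all 4 E18.5 libraries. A further 13.7% were lower in all 4, the side on which Arntl and Npas2 fell.

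Of the D-box factors, Dbp, an output gene with one of the largest daily swings in adult tissue (chr7:45705088-45710155, plus strand), was at 5.75 and 6.16 RPM in E18.5 Wfdc2+/+, 4.33 and 10.1 RPM in E18.5 Wfdc2GFP/GFP, 5.16 and 10.7 RPM in P1.5 Wfdc2+/+, and 33.6 and 10.7 RPM in P1.5 Wfdc2GFP/GFP. Only P1.5 Wfdc2GFP/GFP replicate 1 left the band of 4.33 to 10.7 RPM that held the other 7 libraries, with replicate 2 of that group level with its higher control. Tef (chr15:81802421-81826861, plus strand), the most abundant of the 10, showed none of this. Tef was at 123 and 136 RPM in E18.5 Wfdc2+/+, 241 and 177 RPM in E18.5 Wfdc2GFP/GFP, 163 and 99.7 RPM in P1.5 Wfdc2+/+, and 136 and 101 RPM in P1.5 Wfdc2GFP/GFP. It was higher in both E18.5 mutants than in both E18.5 controls, with replicate 1 of the mutant again on top.

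The comparison of genotypes addresses what the loss of Wfdc2 does to the lung, and for the clock genes no difference passed the test at either stage. At P1.5 limma's test called 0 of the 10 genes at an adjusted p under 0.05, beside 0.0128% of all genes tested (2 genes, Wfdc2 among them, both lower in the mutant). Their median log2 difference was -0.02, beside -0.20 over all genes tested. In single libraries, both mutants were above both controls for Dbp and Nr1d2, as for 12.6% of all genes tested, and below them for Per2, Arntl and Clock, as for 26.9%. Dbp had the largest difference of the 10, with 22.2 ± 16.2 RPM (SD, n = 2) in the mutants and 7.92 ± 3.91 RPM (SD, n = 2) in the controls. That is 2.56-fold on the log2 means (log2 difference 1.36, 95% interval -0.14 to 2.85, limma adjusted p = 0.493), and without replicate 1 of the mutant it was 0.53 on the log2 scale. At E18.5 limma called 0 of 10, beside 0.0192% of all genes tested (3 genes, Wfdc2 among them, all lower in the mutant). The median difference was 0.15, beside 0.09 over all genes. Both mutants were above both controls for Tef, Per2, Per3 and Arntl, as for 26.5% of all genes tested, and below them for Cry1, as for 9.46%. The Arntl difference at E18.5 (0.13) changed sign when libraries were centred on their medians (-0.08), as did those of Dbp, Nr1d2 and Npas2. At an unadjusted p under 0.05 Per2 alone of the 10 passed at each stage, among 1710 genes at P1.5 and 683 genes at E18.5. With median centring 0 of the 10 did so at either stage, among 2069 genes at P1.5 and 676 at E18.5. Quantile normalization also gave 0, among 1892 and 833 genes. With voom on the recovered reads the count of clock genes called was also 0 at both stages.

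The comparison of stages addresses the change around birth. In Wfdc2+/+ lungs limma called 0 of 10 genes, beside 0.0576% of all genes tested (4 higher and 5 lower at P1.5, against 36 and 13 with quantile normalization). No clock gene had an unadjusted p under 0.05 there, against 1850 of all genes. In single libraries both P1.5 controls were above both E18.5 controls for Nr1d1, Nr1d2 and Per2, as for 27.4% of all genes tested, and below them for Arntl, Clock, Npas2 and Cry1, as for 28.2%. In Wfdc2GFP/GFP lungs limma also called 0 of 10, beside 4.55% of all genes tested (252 higher and 459 lower, against 849 higher and 430 lower with median centring and 377 higher and 329 lower with quantile normalization). Here 6 of 10 had an unadjusted p under 0.05, among 5560 of all genes, namely Per2, Tef and Npas2 on the lower side and Nr1d1, Nr1d2 and Dbp on the higher side. Per2 came nearest to the threshold, at 3.20-fold lower at P1.5 (log2 difference -1.68, 95% interval -2.66 to -0.70, limma adjusted p = 0.0564). Over 17 alternatives its adjusted p ran from 0.0265 to 0.482 and passed the threshold in 5. Nr1d2 was 2.17-fold higher (1.12, 95% interval 0.27 to 1.97, limma adjusted p = 0.0824), and passed in 4 of 17 alternatives, which ran from 0.0403 to 0.526. With voom the count was 0 in either genotype. The median over the 10 genes in Wfdc2GFP/GFP was -0.92, beside -0.46 over all genes, and with each library centred on its median the medians were -0.24 and 0.21. Both P1.5 mutants were above both E18.5 mutants for Dbp and Nr1d2, as for 18.7% of all genes tested, and below them for Tef, Per2, Per3, Arntl, Clock and Npas2, as for 48.5%. Averaged over both genotypes, a comparison chosen after the data were seen, limma called 0 of 10 genes, beside 5.14% of all genes tested, and Nr1d2 was nearest (log2 difference 0.93, SE 0.26, adjusted p = 0.060). The interaction of stage and genotype gave 0 of 10 by limma and 0 by voom, beside 0% of all genes tested. Per2 alone of the 10 had an unadjusted p under 0.05 for it, among 1599 of all genes.

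**Figure D2:**
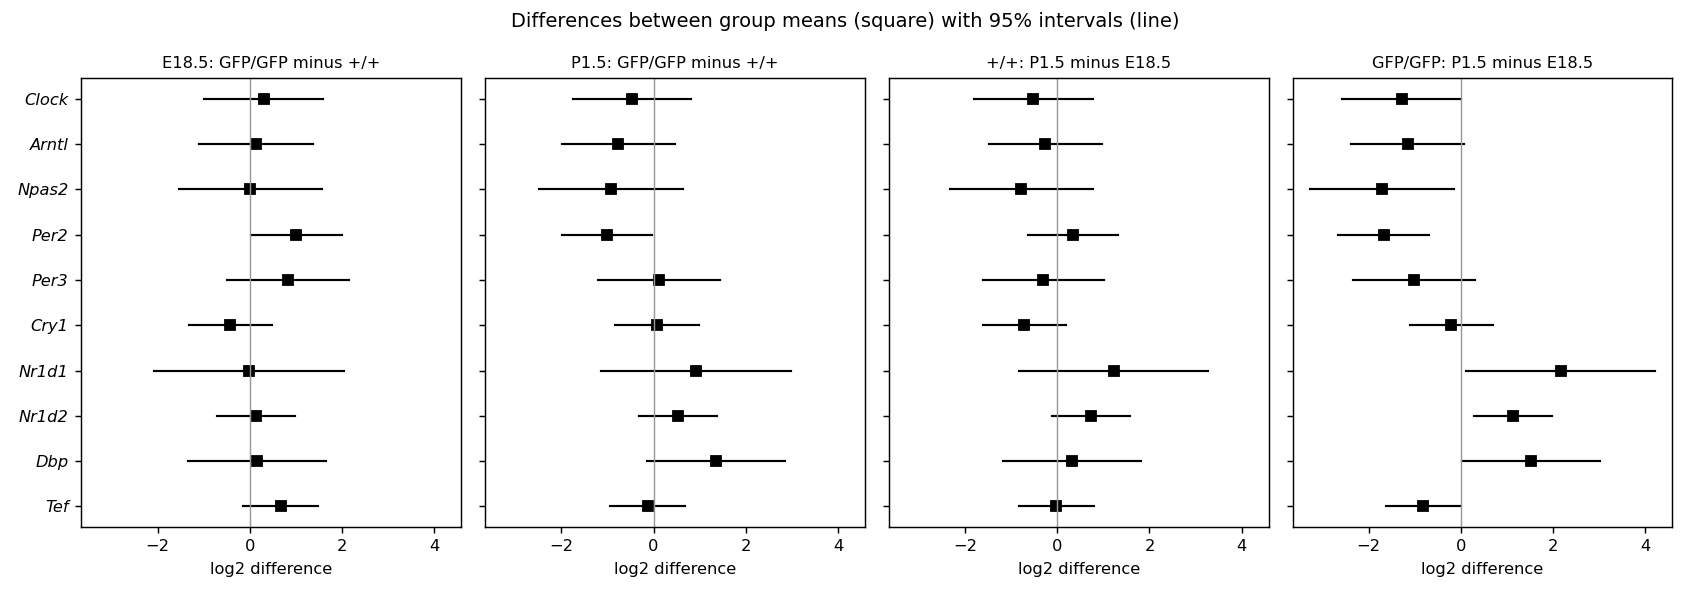
Difference between group means on the log2 scale (squares) with its 95% interval from limma (lines), for the 10 clock genes in the 4 comparisons of 2 against 2 libraries. Intervals exclude 0 only for Per2 between genotypes, and for Per2, Tef, Npas2, Nr1d1, Nr1d2 and Dbp between stages in Wfdc2GFP/GFP, before adjustment for the number of genes tested.

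A further feature of the 10 genes lay within a group. In P1.5 Wfdc2GFP/GFP replicate 1 Dbp, Nr1d1 and Nr1d2 stood at their highest, and Arntl, Npas2 and Cry1 at their lowest, of all 8 libraries. The other 4 genes were at neither end there, with Per2 at 29.0 RPM, Per3 at 31.7 RPM, Clock at 21.0 RPM and Tef at 136 RPM. The share of all genes tested that stood at an end in that library was not counted. It had the fewest genes with reads of the 8 libraries (17230, beside 17800 to 18987 in the others). A ratio of 2 genes within a library does not depend on its depth or scaling. Intron reads were counted, however, and the spans were unlike (Dbp 5.07 kb and Nr1d1 7.40 kb, Arntl 107 kb and Npas2 170 kb). The part of intron reads in the ratios was not tested. In P1.5 Wfdc2GFP/GFP replicate 1 Dbp had 779 reads and Arntl 155 reads, a log2 ratio of 2.33, whereas in the other 7 libraries the ratio ran from -2.56 to -0.78. Nr1d1 had 793 reads and Npas2 64 reads, a log2 ratio of 3.63, against -3.59 to 0.20 in the other 7 libraries. Its replicate, with 314 reads of Dbp and 539 of Arntl, lay at -0.78, next to P1.5 Wfdc2+/+ replicate 2 at -0.80. The 2 mutant libraries of that stage thus lay further apart, for both ratios, than the whole range of the other 7 libraries. At the other end, E18.5 Wfdc2GFP/GFP replicate 1 had the lowest Dbp-to-Arntl and Nr1d1-to-Npas2 ratios, from 161 reads of Dbp and 61 of Nr1d1. These pairs were chosen with the values known and the ratios carry no test.

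**Figure D3:**
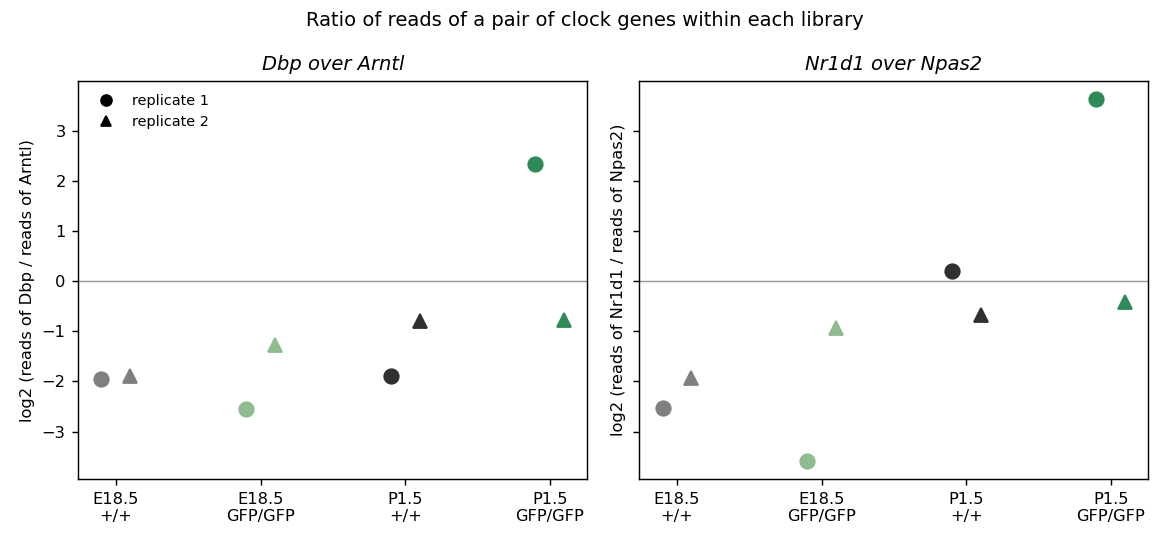
Log2 ratio of the reads of Dbp to those of Arntl (left) and of Nr1d1 to those of Npas2 (right) within each of the 8 libraries, by group; circles are replicate 1 and triangles replicate 2. P1.5 Wfdc2GFP/GFP replicate 1 stands at 2.33 and 3.63, above the other 7 libraries in both panels.

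Replicates of 1 group differed over these genes to an extent that varied by group. The median size of the log2 difference between replicates was 0.12 over the 10 genes in E18.5 Wfdc2+/+, 0.65 in E18.5 Wfdc2GFP/GFP, 0.25 in P1.5 Wfdc2+/+ and 0.90 in P1.5 Wfdc2GFP/GFP. Over all genes tested the corresponding medians were 0.14, 0.56, 0.80 and 0.38. These differences were taken without centring the libraries. On that scale the control lungs at P1.5 differed less in the clock genes than in the table as a whole, and the mutant lungs at P1.5 differed more. The libraries themselves were offset, with log2 medians of -0.96 and -0.22 in P1.5 Wfdc2+/+ and -0.95 and -0.63 in P1.5 Wfdc2GFP/GFP. Such an offset enters the difference of every gene, and its part in these contrasts and in the 2-fold shares below was not tested. In P1.5 Wfdc2GFP/GFP 4 of 10 clock genes differed over 2-fold between replicates, against 12.9% of all genes tested. Nr1d1 (log2 difference 1.97, replicate 1 minus replicate 2), Dbp (1.65), Arntl (-1.46) and Npas2 (-2.06) were those 4, and differences as large were seen in 3.58%, 4.91%, 6.31% and 3.32% of all genes tested. In P1.5 Wfdc2+/+ only Per3 (-1.65) and Dbp (-1.05) passed 2-fold, against 38.9% of all genes. In E18.5 Wfdc2GFP/GFP it was Nr1d1 (-2.48), Clock (1.67) and Dbp (-1.22), against 24.2%, and in E18.5 Wfdc2+/+ none of the 10, against 3.86%. Dbp was higher in replicate 1 in P1.5 Wfdc2GFP/GFP and higher in replicate 2 in the other 3 groups, in E18.5 Wfdc2+/+ by only 0.099 on the log2 scale. The part of Xist or Ddx3y carriage in these differences was not tested. The marker sums of the 2 P1.5 mutant libraries were 76403 and 55808 RPM for lung epithelium, 2254 and 2768 RPM for erythroid cells, 2258 and 1867 RPM for leukocytes and 537 and 744 RPM for heart and striated muscle, and their part in the clock gene values was not tested.

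**Figure D4:**
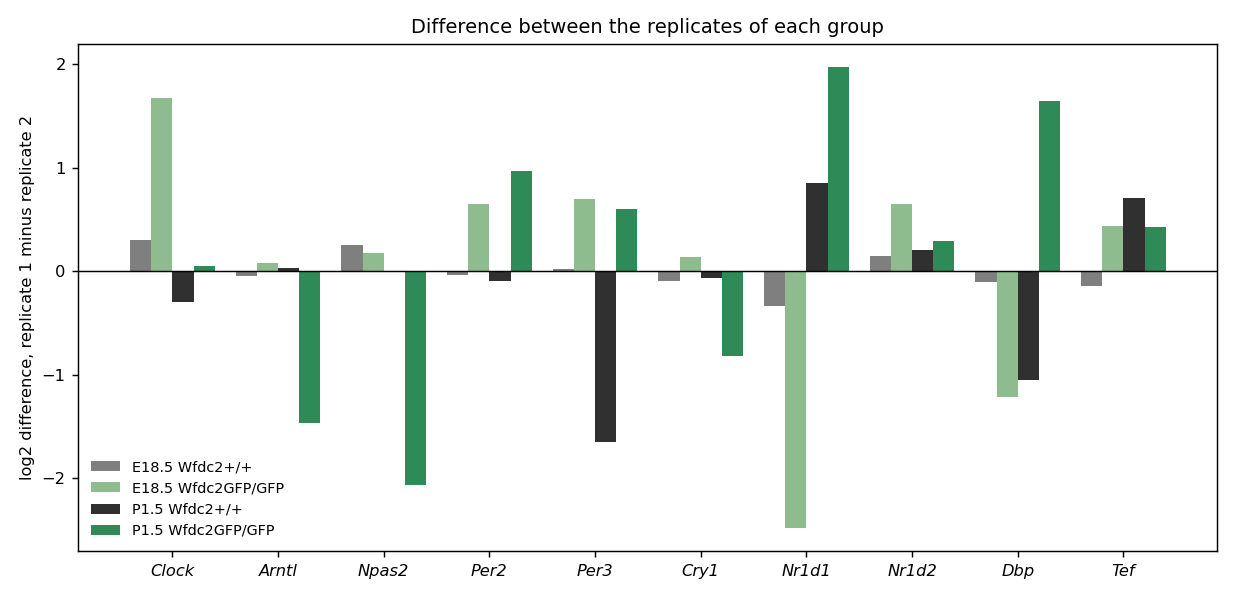
Log2 difference between the replicates of each group (replicate 1 minus replicate 2, bars from 0) for the 10 clock genes. The bars of P1.5 Wfdc2GFP/GFP point up for Nr1d1 (1.97) and Dbp (1.65) and down for Arntl (-1.46) and Npas2 (-2.06).

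A wider list of 22 genes tied to the clock was also read, all found in the table, of which 20 were tested and Rorb and Fbxl21 fell under the filter. None of the 20 was called by limma, or by voom on the recovered reads, in any of the comparisons. At an unadjusted p under 0.05, 1 was higher (Bhlhe40) and 1 lower (Rora) in the mutant at P1.5, and 1 was higher (Ciart) at E18.5. The counts over all genes tested were 564 higher and 1146 lower at P1.5 and 590 higher at E18.5. Between stages 1 was higher at P1.5 in Wfdc2+/+ (Ciart again), beside 1079 of the 15627 genes tested. In Wfdc2GFP/GFP 4 were lower at P1.5, beside 4058 of the 15627. Wee1, a cell cycle kinase gene under clock control and named here after its value was seen, was 10.2-fold lower there (log2 difference -3.35, SE 0.91, limma adjusted p = 0.0625). Wee1 was at 27.9 and 8.51 RPM in E18.5 Wfdc2GFP/GFP and 1.42 and 1.61 RPM in P1.5 Wfdc2GFP/GFP. In Wfdc2+/+ it was 4.21-fold lower at P1.5 (-2.07, SE 0.91, limma adjusted p = 0.422). The Wee1 interaction was -1.27 (SE 1.28, limma adjusted p = 0.793). Ciart, a repressor of the CLOCK and ARNTL pair listed as Gm129, came nearest in the control lungs. It was at 1.42 and 1.54 RPM in E18.5 Wfdc2+/+, 3.33 and 8.75 RPM in E18.5 Wfdc2GFP/GFP, 7.60 and 10.2 RPM in P1.5 Wfdc2+/+, and 6.86 and 5.78 RPM in P1.5 Wfdc2GFP/GFP. Its 2 E18.5 control libraries were below all the others, and the change to P1.5 in the controls was 5.94-fold (log2 difference 2.57, SE 0.47, limma adjusted p = 0.103). That change passed the threshold with the filter at 0.5 RPKM (adjusted p = 0.0472) and without P1.5 Wfdc2+/+ replicate 2 (adjusted p = 0.0405), and not otherwise. Bhlhe40 (Dec1), another repressor of that pair, was at 15.8 and 17.6 RPM in P1.5 Wfdc2+/+ and 30.5 and 50.6 RPM in P1.5 Wfdc2GFP/GFP, a log2 difference of 1.23 (SE 0.42, limma adjusted p = 0.358). Rora, which activates Arntl at the elements that REV-ERB proteins occupy, was at 62.7 and 109 RPM in P1.5 Wfdc2+/+ and 40.0 and 25.7 RPM in P1.5 Wfdc2GFP/GFP (-1.37, SE 0.51, limma adjusted p = 0.405). Per1, the period gene that glucocorticoids also induce, ran from 44.0 to 255 RPM and was at 234 and 44.0 RPM in the P1.5 mutant replicates. Cry2 ran from 39.8 to 108 RPM, Hlf, the D-box relative of Dbp and Tef, from 6.90 to 13.4 RPM, Nfil3, which competes with them, from 10.9 to 43.2 RPM, and Bhlhe41 (Dec2) from 1.26 to 12.3 RPM. For these 4 genes the P1.5 genotype difference was 0.06 (Cry2), -0.49 (Hlf), 0.39 (Nfil3) and 0.79 (Bhlhe41) on the log2 scale. Over the 20 genes the median difference was -0.05 at P1.5 between genotypes and 0.30 at E18.5.

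Genes that varied most like Dbp and Arntl over the 8 libraries were read among 7052 genes averaging 1 RPKM or more. The clock genes and the wider list had been left out of these by design. Likeness was Pearson's r of the log2 values, as a description over n = 8 libraries of unlike depth and 2 stages. The 5 nearest to Dbp were G6pc3 (r = 0.97), Osgep, Acaa1a, 1110001A16Rik and Amdhd2 (0.94 each). The 5 nearest to Arntl were Rwdd2b (0.99), Rpp14 (0.98), Gemin4 (0.97), Mrpl39 (0.95) and 1600012F09Rik (0.94). Without P1.5 Wfdc2GFP/GFP replicate 1 r fell to 0.63 for Mrpl39, 0.73 for 1600012F09Rik, 0.81 for Rpp14, 0.85 for Gemin4 and 0.90 for Rwdd2b, while for the 5 genes like Dbp it was 0.87 to 0.98. These genes also stood at an extreme in P1.5 Wfdc2GFP/GFP replicate 1. That follows from picking them by likeness to Dbp or Arntl over the same libraries, and adds no separate evidence. G6pc3 was at 25.4 RPM there against 12.3 to 19.5 RPM in the other 7 libraries, and Gemin4 at 1.90 RPM against 7.14 to 16.4 RPM.

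The reads of 3 of the 10 genes could include those of a neighbour, since values were taken over the whole gene span. Dbp shared 689 bases with Sphk2 on the opposite strand (22.6 to 39.5 RPM over the libraries), Nr1d1 shared 1075 bases with Thra on the opposite strand (111 to 226 RPM), and all 41014 bases of Per3 lay within Camta1 on the same strand (163 to 227 RPM). The use of strand in counting was not given in the sources used here, and the share of such reads was not tested. The spans of the other 7 genes overlapped no gene of the table.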

How the data were processed

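RNA of whole lungs was sequenced from a directional kit. The paper's methods name 2 Illumina sequencer models as alternatives and do not say which library ran on which. The authors trimmed and filtered the reads (Trim Galore 0.4.0, NGS QC Toolkit), aligned them to mm10 with TopHat2 2.1.1 guided by mRNA coordinates, and deposited log2 RPKM values over each gene's span, introns included, from SeqMonk, with 0.9 read entered for a gene without reads. Whole reads were recovered from the deposited log2 values in all 8 libraries (all values within 0.02 of a whole number), and gave the reads and RPM printed here. At this depth 3 reads correspond to 0.0806 to 0.154 RPM. Groups came from the sample labels. The values of the 15627 genes averaging 0.05 RPKM or more were fitted with limma 3.58.1 (R 4.3.3) as 4 group means with an intensity trend, 4 residual degrees of freedom, two-sided tests and Benjamini-Hochberg adjustment over all genes (threshold 0.05). An exact permutation test of 2 against 2 cannot go below p = 0.3333 and was not used. The labels do not say whether replicates of a group shared a litter, and p-values measure the spread between these libraries only. The 10 genes are those named at the outset; of the wider list the main repressors, activators and D-box genes are named with values and the rest by counts. Members and lists were chosen with earlier results of these data known. Scripts were tested on simulated data, in which false calls fell mostly on genes of few reads. Alternatives were another pseudocount (0.1), other filters, centring, quantile normalization, the compared libraries alone, a replicate block, voom and leaving out libraries.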

Additional observations from a re-analysis of the deposited data

How the results depend on the processing

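The count of clock genes past the threshold was 0 in all 18 alternatives for each genotype comparison, and in all 17 for the stage comparison in Wfdc2+/+ and for the interaction. For the stage comparison in Wfdc2GFP/GFP it was 1 with a mean of at least 0.5 RPKM (Per2), with median centring (Nr1d2), with quantile normalization (Nr1d2) and with the 4 libraries compared alone (Per2), and 0 to 3 when 1 library was left out (3, Nr1d1, Per2 and Clock, without E18.5 Wfdc2GFP/GFP replicate 2; 2, Nr1d2 and Per2, without P1.5 Wfdc2+/+ replicate 1 or 2). Averaged over genotypes it was 1 with median centring or quantile normalization (Nr1d2) and 0 to 2 when 1 library was left out (2 without E18.5 Wfdc2GFP/GFP replicate 2 or P1.5 Wfdc2+/+ replicate 2). The cause was not tested. Only 7 of the 10 genes passed the filter of 0.5 RPKM, which Arntl, Clock and Npas2 missed. Of the 20 genes of the wider list, 5 passed under at least 1 alternative between stages in Wfdc2GFP/GFP, 4 in Wfdc2+/+ and 0 between genotypes or in the interaction.

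The number of all genes called depended strongly on the library set. Leaving out 1 library gave 0 to 24 genes at P1.5 and 0 to 1 at E18.5 between genotypes, 0 to 2166 between stages in Wfdc2+/+, 0 to 4874 in Wfdc2GFP/GFP, 28 to 7125 averaged over genotypes and 0 to 2 for the interaction, most of the high counts without a P1.5 Wfdc2+/+ library. The other settings gave 0 to 21 genes at P1.5, 0 to 22 at E18.5, 0 to 52 between stages in Wfdc2+/+, 125 to 3036 in Wfdc2GFP/GFP, 287 to 1842 averaged over genotypes and 0 for the interaction, and leaving out replicate 1 of both Wfdc2GFP/GFP groups gave 0 in each.

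Replicate numbers were shared between groups, but the labels do not say that they pair the lungs. The deviations of same-numbered libraries correlated at 0.23 between the genotypes at E18.5 and at 0.21 at P1.5, and between stages at -0.29 to 0.08. A replicate block over the 8 libraries left 0 clock genes called in each comparison, and among all genes 125 between stages in Wfdc2GFP/GFP and 0 in Wfdc2+/+ and between genotypes. A replicate block within stage also left 0 clock genes, with 1 gene in all at E18.5 and 9 at P1.5.

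No reversed difference below had passed the threshold. Median centring reversed the log2 difference of Tef at P1.5 (0.079), of Dbp (-0.061), Nr1d2 (-0.067), Arntl (-0.077) and Npas2 (-0.20) at E18.5, of Tef (0.24) and Arntl (0.0031) between stages in Wfdc2+/+ and of Cry1 (0.46) between stages in Wfdc2GFP/GFP. Quantile normalization reversed Dbp (-0.10), Nr1d2 (-0.092), Arntl (-0.078) and Npas2 (-0.13) at E18.5 and Cry1 (0.55) between stages in Wfdc2GFP/GFP, and the pseudocount of 0.1 RPKM reversed Nr1d1 at E18.5 (0.057). Leaving out replicate 1 of both Wfdc2GFP/GFP groups, chosen after seeing the data, reversed Nr1d1 (-0.067), Per3 (-0.18) and Npas2 (0.10) at P1.5, Nr1d1 (1.22), Nr1d2 (-0.18), Clock (-0.54) and Npas2 (-0.074) at E18.5, Nr1d1 (-0.067) and Cry1 (0.27) between stages in Wfdc2GFP/GFP, and Dbp (-0.22), Nr1d1 (-1.29), Clock (0.043) and Npas2 (0.18) in the interaction. Leaving out 1 library at a time, with a lone library then taken to vary like the other groups, the differences that crossed 0 ranged as follows. At P1.5 these were Tef (-0.48 to 0.24), Nr1d1 (-0.067 to 1.91), Per3 (-0.70 to 0.94), Npas2 (-1.96 to 0.10) and Cry1 (-0.33 to 0.49). At E18.5 they were Dbp (-0.46 to 0.76), Nr1d1 (-1.26 to 1.22), Nr1d2 (-0.18 to 0.47), Clock (-0.54 to 1.14) and Npas2 (-0.12 to 0.14). Between stages they were Dbp (-0.21 to 0.84), Tef (-0.38 to 0.33) and Per3 (-1.13 to 0.52) in Wfdc2+/+, and Cry1 (-0.62 to 0.20) in Wfdc2GFP/GFP. In the interaction they were Nr1d1 (-0.30 to 2.17), Per3 (-1.53 to 0.11), Clock (-1.60 to 0.068) and Npas2 (-1.98 to 0.088). Each of the 10 genes had at least 61 reads in each library, and 2 libraries a group limited the precision.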
